A study of Macaca fascicularis with 2 samples.

Results

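GZMK-dominant cells were T cells of a CD4+CD8+ double-positive (DP) preparation in which RNA for granzyme K outnumbered RNA for granzyme B. They made up 171 of the 8830 cells kept, or 1.94% (exact binomial 95% interval 1.66 to 2.25%). They were picked on raw UMIs, unique molecular identifiers that each stand for 1 captured RNA or tag molecule. A cell needed at least 1 UMI of *CD3E*, at least 3 of *GZMK* and more of *GZMK* than of *GZMB*. It also needed none of *FOXP3* or *CD79A*, at most 1 of *FCER1G*, at least 144 of the CD4 tag and at most 999 of the CD8 tag. Kept cells had 200 to 4000 genes and at most 20% mitochondrial UMIs, which removed 123 of 8953 barcodes, and 0 of those met the rest of the rule.

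The cells came from the peripheral blood of 1 untreated, healthy male *Macaca fascicularis* (cynomolgus monkey), 10 years old. Blood mononuclear cells went through a CD4 selection on detachable magnetic beads, followed by a CD8 selection of what the CD4 beads had held. The bound cells carried oligonucleotide-labelled antibodies to CD4 and CD8α and were loaded once on a droplet system that reads RNA from its 5′ end. The gene library and the tag library thus describe the same cells of 1 animal, with no replicate, and no test was possible. Intervals below are exact 95% intervals that cover counting error only, and differences between animals cannot be told apart from differences between cells of this animal.

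Granzymes are serine proteases stored in the granules of cytotoxic lymphocytes. Granzyme B triggers death of target cells, while granzyme K is known from memory T cells that still recirculate. Eomesodermin, encoded by *EOMES*, is a T-box transcription factor of cytotoxic and memory lymphocytes and a relative of T-bet (*TBX21*). Type 1 regulatory T (Tr1) cells are FOXP3-negative CD4+ cells known for interleukin 10, and a form with *EOMES* and granzyme K has been described.

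The 171 cells held 610638 gene UMIs. The median was 3291 UMIs per cell (lowest 1556, highest 9111), against 3143 in the other 8659 cells. Mitochondrial genes took a median of 3.25% of UMIs. By the rule, *GZMK* ranged from 3 to 29 UMIs per cell with a median of 8, and these cells held 49.6% of all *GZMK* UMIs in kept cells (1609 of 3243). *GZMB* had a median of 0 and a maximum of 16 UMIs. It was at 0 in 120 cells, at 1 in 21, at 2 in 11 and at 3 or more in 19, so that 70.2% showed no granzyme B RNA.

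The rule placed few cells at its edges. At the *GZMK* minimum, 18 cells inside had exactly 3 UMIs, and their *EOMES* level was 261 CPM (counts per 1000000 gene UMIs of a group, 159 to 403). Just outside, 22 cells with 2 *GZMK* UMIs that met every other condition had 333 CPM (216 to 492), so both sides carried *EOMES*. At the *GZMB* limit, 2 cells had 1 more *GZMK* than *GZMB* UMI and 5 cells had equal counts. The CD4 tag minimum and the CD8 tag maximum left out 23 further cells, 4 for the CD4 tag alone, 11 for the CD8 tag alone and 8 for both. A UMI of *CD79A* left out 9 cells, a UMI of *FOXP3* left out 1, and no *CD3E* left out 4.

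Both tags were used by the rule, so their levels are a description. B cells without T cell receptor RNA (113 cells, a reference chosen after the data were seen) served as the tag background. The CD4 tag had a median of 483 UMIs in GZMK-dominant cells (217 to 1468) and of 135 in the B cells, and 168 of 171 lay above the 90th percentile of the B cells (98.2%, 94.96 to 99.6%). The CD8 tag had a median of 405 UMIs (120 to 998) against 199 in the B cells, and 112 of 171 lay above that percentile (65.5%, 57.9 to 72.6%). The rest of the cells could not be separated from the background of the CD8 tag by this measure. *CD8A* RNA stood at 120 CPM (93.7 to 150) and *CD4* RNA at 131 CPM (104 to 163).

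**Figure D1:**
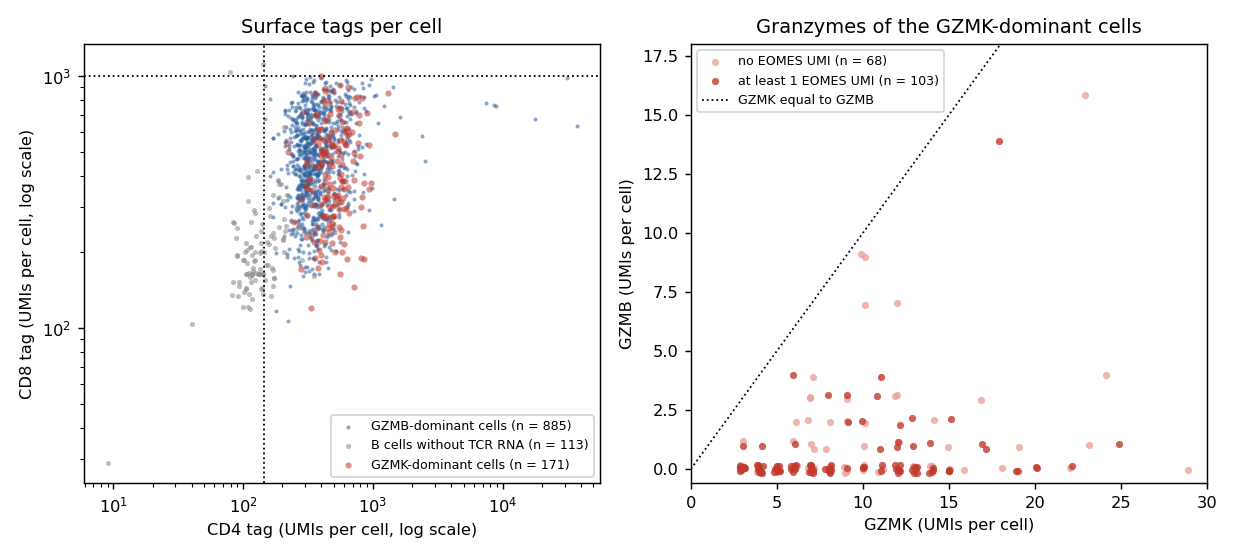
Left, UMIs of the CD4 tag (x axis) and of the CD8 tag (y axis) of single cells on log scales, with dotted lines at the limits of the rule. The GZMK-dominant cells sit to the right of the B cells, which have a CD4 tag median of 135 UMIs against 483. Right, UMIs of *GZMK* (x axis) and *GZMB* (y axis) of the 171 cells, shifted slightly so that points do not overlap, coloured by whether an *EOMES* UMI was seen (103 cells) or not (68 cells).

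The label of the cells was checked against 4 markers, of which *GZMK* was used by the rule. *EOMES* stood at 293 CPM (252 to 339) in GZMK-dominant cells and at 9.98 CPM (8.90 to 11.2) in all other kept cells, a log2 ratio of 4.88 (4.60 to 5.15). The 171 cells held 36.6% of all *EOMES* UMIs (179 of 489). An *EOMES* UMI was found in 103 of 171 cells. After each cell was thinned to 2200 UMIs, which leaves out 8 shallower cells, the share was 44.2% (72 of 163), against 0.901% of B cells, whose median depth was 4549 UMIs. *NKG7* and *CST7*, a granule membrane protein and the cathepsin inhibitor cystatin F, reached 1213 and 911 CPM. Both were lower than in the GZMB-dominant cells described below, so they do not set GZMK-dominant cells apart from other cytotoxic cells. Every one of the 171 cells had a UMI of at least 1 of *EOMES*, *NKG7* and *CST7*, and 79 had all 3. After thinning, 5 of 163 cells had none and 45 had all 3, and an *NKG7* and a *CST7* UMI were found in 1.80% and 2.70% of B cells. The genes that define Tr1 cells by secretion or surface were sparse. *IL10* had 8 UMIs in 7 cells (13.1 CPM, 5.66 to 25.8), *LAG3* had 9 UMIs in 8 cells (14.7 CPM, 6.74 to 28.0) and *ITGA2*, which encodes CD49b, had 1 UMI. *CD226*, another surface marker of Tr1 cells, had 6 UMIs. The label therefore rests on *EOMES* and *GZMK*, and the cells are called GZMK-dominant here.

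Markers of other cells were at or near 0. Of 11 B cell genes, 8 were at 0, *CD79A* among them by the rule, and 16 of the 18 UMIs were of *IGKC*, an immunoglobulin light chain. The sum was 29.5 CPM, against 2.28 CPM in the GZMB-dominant cells described below and 7706 CPM in the B cells. Of 11 monocyte genes, 8 were at 0 and the sum was 9 UMIs. Of 5 NK cell genes, *NCAM1*, *NCR1* and *FCER1G* were at 0, the last by the rule, and the sum was 8 UMIs. Erythroid genes had 0 UMIs and platelet genes 2.

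GZMK-dominant cells were first set against all other kept cells, of which many are naïve. A gene was called higher or lower when its ratio of CPM was at least 2-fold (a log2 ratio of 1 or more in size), among genes whose UMIs in the groups compared summed to 50 or more. Of 9692 genes, 528 were higher (5.45%) and 812 lower (8.38%). Fewer than 10 UMIs in GZMK-dominant cells lay behind 250 of the higher and 748 of the lower calls, so that the lower calls in particular rest on small counts.

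Of 10 inhibitory receptor genes measured, 5 were higher and 0 lower. *PDCD1*, which encodes PD-1, stood at 149 CPM (120 to 183) against 33.0 in the other cells, a log2 ratio of 2.18 (1.85 to 2.49). *TIGIT*, which binds CD155, had a ratio of 1.90 (1.60 to 2.20) and *CD96*, of the same receptor family, one of 2.53 (2.14 to 2.90). *CTLA4*, a rival of CD28 for its ligands, had 28 UMIs and a ratio of 1.31 (0.71 to 1.86). The other called gene was *LAG3*. Among 16 genes of the Tr1 list, 8 were higher and 1, *CD226*, was lower (-1.85, -3.29 to -0.72), with a median log2 ratio of 1.05 against 0.03 over all genes tested. The list includes *EOMES* and *CHI3L2*, which the study used to describe such cells in these same data, so its direction is not independent.

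Homing receptors of tissue-seeking cells were called as well. Of 18 chemokine receptor and homing genes, 6 were higher and 4 lower. *CXCR3*, the receptor for interferon-induced chemokines, stood at 121 CPM (95.2 to 152), with a log2 ratio of 2.46 (2.10 to 2.81). *CCR2*, a receptor for monocyte chemoattractant proteins, had 26 UMIs in 17 cells and a ratio of 2.93 (2.27 to 3.53). *CXCR5*, the receptor that leads cells to B cell follicles, had 36 UMIs in 29 cells and a ratio of 1.83 (1.30 to 2.32), and B cells, which also carry it, had a UMI in 53.2% after thinning. *CX3CR1*, the fractalkine receptor of circulating effector cells, was lower at 4 UMIs (-2.76, -4.64 to -1.40), and *CCR6* was represented by 1 UMI. *IL2RB*, the β chain shared by the receptors for interleukins 2 and 15, was higher at 2.02 (1.76 to 2.28), while *IL2RA* had 1 UMI.

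Naïve genes divided. Of 12 naïve and central memory genes, 0 were higher and 7 lower, with a median log2 ratio of -1.28. *LEF1*, a transcription factor of naïve cells, was lower by the widest margin of these, at 39.3 CPM (25.2 to 58.5) against 296, a ratio of -2.91 (-3.56 to -2.34). *SATB1*, a chromatin organiser, and *CD7* were lower at -1.63 and -1.72. *CCR7*, which leads cells into lymph nodes, did not pass the limit, at 398 CPM (349 to 451) against 374 CPM. *SOX4*, a gene of early T cell development, had 1 UMI against 34.7 CPM elsewhere (-4.41, -9.71 to -1.92). Further genes with the largest ratios were *KLRB1*, which encodes the lectin receptor CD161, the semaphorin *SEMA4A*, *OPTN* and *SLAMF7* on the higher side, and *TOX2*, *CA6*, *CAPG*, *CD1A*, *PDE6H* and *BEX3* on the lower side. The log2 ratios of the former ran from 2.09 (*SLAMF7*) to 2.56 (*KLRB1*).

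*KLRB1* was uneven among the cells. It had 193 UMIs (316 CPM, 273 to 364), and 106 of 171 cells had none. The 10 cells with the most carried 48.7% of them, and 1 cell carried 20. *EOMES* was spread more evenly, since its 10 highest cells held 17.3% and no cell had more than 4 UMIs. *TRGV10*, a γ chain segment, had 124 UMIs in 18 cells, of which the top 10 held 82.3%. It was not particular to these cells. A UMI of it was found in 10.5% of them, 25.9% of the GZMB-dominant cells described below and 5.36% of all other kept cells. Its level was 203 CPM against 112 CPM in GZMB-dominant cells. *TRGC2*, a γ chain constant gene, had 6 UMIs and was found in 3.51% of GZMK-dominant and 15.4% of GZMB-dominant cells.

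GZMK-dominant cells were next set against GZMB-dominant cells, 885 cells inside the same tag limits that were selected the other way, on at least 3 *GZMB* UMIs and more *GZMB* than *GZMK*. Their median depth was 3579 UMIs, their CD4 tag median 349 and their CD8 tag median 472. Both groups were chosen by granzyme RNA, so any gene that moves with the granzymes is tied to the choice, and the values are a description. Of 6395 genes, 142 were higher in GZMK-dominant cells (2.22%) and 487 were lower (7.62%), 341 of the latter with under 10 UMIs in GZMK-dominant cells. The median log2 ratio of all genes tested was -0.12.

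The T-box factors ran in opposite directions. *EOMES* was 293 CPM against 20.2 CPM (15.8 to 25.5), a log2 ratio of 3.86 (3.45 to 4.27), and *TBX21* was 18.01 CPM (8.99 to 32.2) against 79.8 CPM, a ratio of -2.15 (-3.17 to -1.29). *ZEB2*, which acts with T-bet in terminal effector cells, was lower at -2.59 (-3.26 to -1.99), and *HOPX*, *PRDM1* and *BHLHE40* were lower at -3.51, -1.38 and -1.86. *EOMES* was the 1 gene called higher of 16 transcription factors measured, and 6 were lower. *TOX* had 0.96 (0.60 to 1.31), just under the limit. *TCF7*, which encodes the factor TCF1 of self-renewing T cells and stands on the list of naïve genes, was higher at 231 CPM against 53.9 CPM (2.10, 1.77 to 2.42), while *LEF1*, its close relative, was 39.3 against 37.3 CPM (0.07, -0.62 to 0.71).

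Of 10 granule genes measured besides the granzymes of the rule, 1 was higher and 2 lower. *NKG7*, *CST7*, *PRF1* (perforin) and *GZMA* had log2 ratios of -0.91, -0.39, -0.89 and -0.82, all below 0 and inside the limit. *CCL5*, a chemokine kept in the granules of effector cells, was lower at 282 against 1182 CPM (-2.07, -2.30 to -1.85), and *FASLG* had 4 UMIs. Of the *CCL5* UMIs in GZMK-dominant cells, 57.0% were in 10 cells. *CTSW*, a cysteine protease of cytotoxic lymphocytes also called cathepsin W, went the other way, at 146 CPM (117 to 179) against 14.5 CPM (3.33, 2.81 to 3.85). *GNLY* (granulysin) had 334 against 213 CPM (0.65, 0.42 to 0.87), with 46.6% of its UMIs in 10 cells.

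Genes of naïve and central memory cells were higher in part, 5 of 11 measured with 0 lower (median 0.86). *CCR7* stood at 398 CPM against 46.5 CPM (3.099, 2.81 to 3.39). Of 9 costimulation genes, 2 were higher (*CD28* and *ICOS*) and 2 lower (*CD40LG* and *CD226*), with a median of 0.03. *CD28*, the main costimulatory receptor, was 136 against 13.4 CPM (3.34, 2.81 to 3.89). Thinned shares followed, with a *CCR7* UMI in 46.0% of GZMK-dominant and 5.46% of GZMB-dominant cells (4.50% of B cells) and a *CD28* UMI in 27.6% and 2.21% (0 of 111 B cells, which allows up to 2.70%). *LTB*, which encodes lymphotoxin β, and *GPR183*, an oxysterol receptor that guides cells within lymphoid tissue, were higher at 2.57 and 3.25, and *ITM2C* and *DENND2D* at 3.43 and 3.07. *CXCR3*, *CCR2* and *CXCR4* were higher at 1.10, 1.58 and 1.12. *CXCR5* (36 against 8 UMIs), *CCR4* (13 against 3) and *CHI3L2*, a chitinase-like gene (29 against 8), fell below the minimum of 50 UMIs and were not called, with ratios of 4.69, 4.64 and 4.38.

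The surface genes of terminal effector cells were sparse. *CX3CR1* had 4 UMIs (6.55 CPM) against 262 CPM in GZMB-dominant cells (-5.32, -7.20 to -3.96). *ADGRG1*, which encodes the adhesion receptor GPR56, had 0 UMIs, which allows up to 4.91 CPM (3 UMIs), against 81.5 CPM, so that its log2 ratio was -4.05 or lower. Of 7 killer lectin and NK receptor genes, 6 were lower and 1, *KLRB1*, was higher (1.20, 0.95 to 1.44). *KLRF1* and *KLRD1*, which encodes CD94, had 2 UMIs each (-4.36 and -3.95), and *NCR3*, *KLRG1* and *KLRK1* (NKG2D) were lower at -3.14, -1.69 and -1.005. Of 11 memory genes, 7 were lower and 0 higher. *S100A4*, a calcium-binding protein of memory and effector cells, was 1435 against 6862 CPM (-2.26, -2.36 to -2.16), and *ANXA1* was lower at -1.98. Other genes with the lowest ratios, *OSR2*, *TSPAN2*, *CYRIA*, *ABCA1*, *ITGAM* and *ARRB1*, each had 1 or 2 UMIs in GZMK-dominant cells.

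**Figure D2:**
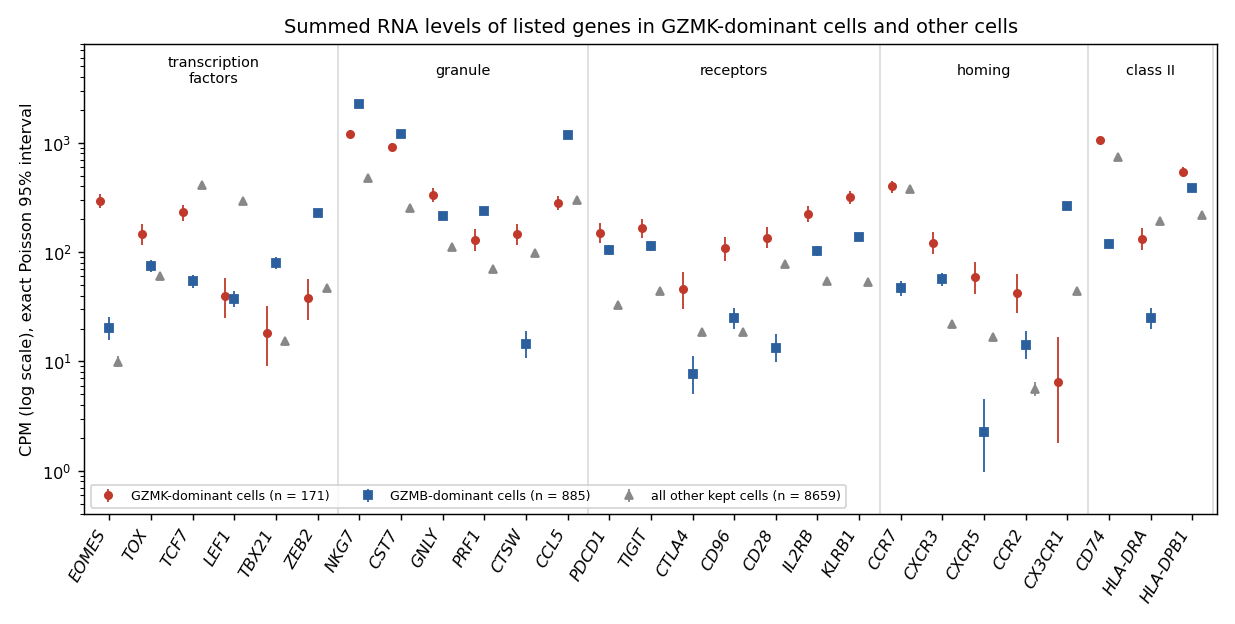
Summed CPM (y axis, log scale) of genes grouped by role in GZMK-dominant cells, GZMB-dominant cells and all other kept cells, which include the GZMB-dominant cells, with exact Poisson 95% intervals. *EOMES*, *CTSW*, *CD28*, *CCR7* and *CD74* stand above GZMB-dominant cells with no overlap of intervals, while *CX3CR1* stands far below them at 6.55 CPM against 262.

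Of 7 inhibitory receptor genes compared with GZMB-dominant cells, 2 were higher (*CTLA4* and *CD96*) and 2 lower (*CD244*, at -1.43, and *KLRG1*). *PDCD1* (0.50, 0.16 to 0.84) and *TIGIT* (0.53, 0.20 to 0.85) stayed inside the limit, whereas *CTLA4* was 45.9 against 7.70 CPM (2.58, 1.76 to 3.39) and *CD96* 108 against 24.8 CPM (2.12, 1.64 to 2.60). Of 12 genes of the Tr1 list, 3 were higher and 2 lower (median 0.11). Of the effector cytokines, *IFNG* (interferon γ) had 3 UMIs against 130 (-2.91, -5.21 to -1.34). *IL10* had 13.1 CPM against 8.55 CPM (5.77 to 12.2), intervals that overlap, and it fell below the minimum of 50 UMIs. Its thinned share was 2.45% against 1.51%, with 0 of 111 B cells.

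MHC class II genes, which present peptides and are switched on in activated T cells of primates, were not uniform. *CD74*, the invariant chain, was 1051 CPM (972 to 1136) against 120 CPM (3.13, 2.96 to 3.32), with a UMI in 133 of 171 cells. *HLA-DRA* was 133 against 24.8 CPM (2.42, 1.96 to 2.87). Of its UMIs in GZMK-dominant cells, 51.9% were in 10 cells. *HLA-DPB1* and *HLA-DPA1* had ratios of 0.48 and -0.36, and *CIITA*, which encodes their transactivator, had 0 UMIs. B cells carry these genes at high levels, and *IGKC* was therefore read in the same cells as a sign of B cell RNA, whose part in the difference was not tested. It was 26.2 CPM in GZMK-dominant and 1.71 CPM in GZMB-dominant cells, so it moved with *CD74*. In the 158 GZMK-dominant cells without an *IGKC* UMI, *CD74* was 1027 CPM (946 to 1114), and in the 13 with one it was 1361 CPM (1038 to 1751). The 158 cells held 582 of the 642 *CD74* UMIs, so their value had to lie near that of all 171. *IGKC* had 16 UMIs in all, too few for a cell without one to be taken as free of B cell RNA.

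*EOMES* was then read along *GZMK*, which the rule used, as a description. Cells that met the other conditions, whatever their *GZMB*, were grouped by *GZMK* UMIs after thinning to 2200. *EOMES* was 2.83 CPM in 5464 cells with none, 130 CPM (79.3 to 201) in 70 cells with 1, 176 CPM (102 to 281) in 44 with 2, 244 CPM in 56 with 3 or 4, 242 CPM in 90 with 5 to 9 and 398 CPM (264 to 575) in 32 with 10 or more. The intervals at 0 and at 1 UMI did not overlap, whereas those of neighbouring groups from 1 UMI on did. Within the 171 cells, before thinning, *EOMES* showed no order with *GZMK*. It was 261 CPM at 3 *GZMK* UMIs, 358 CPM at 4 to 5, 277 CPM at 6 to 9, 302 CPM at 10 to 19 and 241 CPM at 20 or more, with intervals that all overlap. In the wider set grouped after thinning, *GZMB* was 641 CPM without *GZMK*, and fell from 2974 CPM at 1 UMI to 284 CPM at 10 or more. *NKG7* stayed between 1312 and 1773 CPM wherever *GZMK* was seen. *KLRB1* was 90.9 CPM at 1 UMI and 469 CPM at 10 or more. Within the 171 cells the rule keeps *GZMB* below *GZMK*, which caps *GZMB* at low *GZMK*, so a rise of *GZMB* with *GZMK* is in part fixed by the rule. *GZMB* was 26.1 CPM (3.16 to 94.3) at 3 *GZMK* UMIs and 530 CPM (332 to 803) at 20 or more. *KLRB1* was 78.3 and 892 CPM there, *CCL5* 39.1 and 410 CPM, and *CD74* 483 and 1422 CPM.

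**Figure D3:**
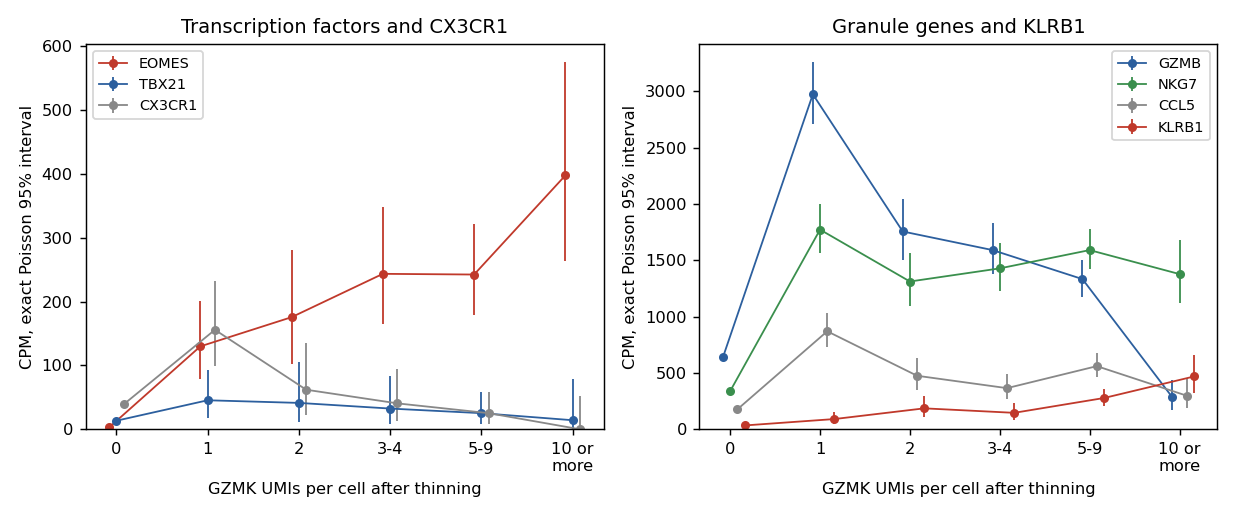
CPM with exact Poisson 95% intervals (y axes) in cells grouped by *GZMK* UMIs after thinning to 2200 UMIs (x axes), for *EOMES*, *TBX21* and *CX3CR1* (left) and for *GZMB*, *NKG7*, *CCL5* and *KLRB1* (right). *EOMES* goes from 2.83 CPM at 0 to 398 CPM at 10 or more *GZMK* UMIs, and *GZMB* from 2974 CPM at 1 to 284 CPM.

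Among the GZMK-dominant cells themselves, the 120 without a *GZMB* UMI differed from the 51 with one. Of 1479 genes, 24 were higher without *GZMB* (1.62%) and 23 lower (1.56%). Genes of naïve and central memory cells were on the higher side, 4 of 7 measured and none lower. *CCR7* was 518 CPM (451 to 592) against 143 CPM (95.3 to 207), a log2 ratio of 1.85 (1.28 to 2.47). *TCF7* was 301 against 82.0 CPM (1.88, 1.12 to 2.73) and *CD7* 224 against 41.0 CPM (2.45, 1.41 to 3.70). *ARID5B*, *SPOCK2* and *HPCAL1* were higher as well, at 2.69, 2.13 and 1.69. *CCL5* was lower, at 106 CPM (77.0 to 142) against 656 CPM (547 to 780), a ratio of -2.63 (-3.16 to -2.13). It was uneven among GZMK-dominant cells, of which 127 had none. The 10 cells with the most held 57.0% of its UMIs, and 1 cell had 18. The interval does not cover such unevenness. *KLRB1* was lower at 176 against 615 CPM (-1.81, -2.25 to -1.37), followed by *ITGB1* (-1.24), *CD96* (-1.18) and *NKG7* (-1.03). *GZMA* had 12 against 26 UMIs, below the minimum for a call.

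Between the same sets *EOMES* was 342 CPM (288 to 403) without *GZMB* and 190 CPM (133 to 261) with it, a log2 ratio of 0.85 (0.32 to 1.41). *PDCD1*, *TIGIT* and *CXCR3* had intervals that included 0. The sets also differed in measures besides RNA. The CD8 tag had a median of 454.5 UMIs without and 328 UMIs with *GZMB*, the median depth was 3170.5 against 3482 UMIs, and *GZMK* had a median of 7 against 10 UMIs. Their part in the differences was not tested.

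**Figure D4:**
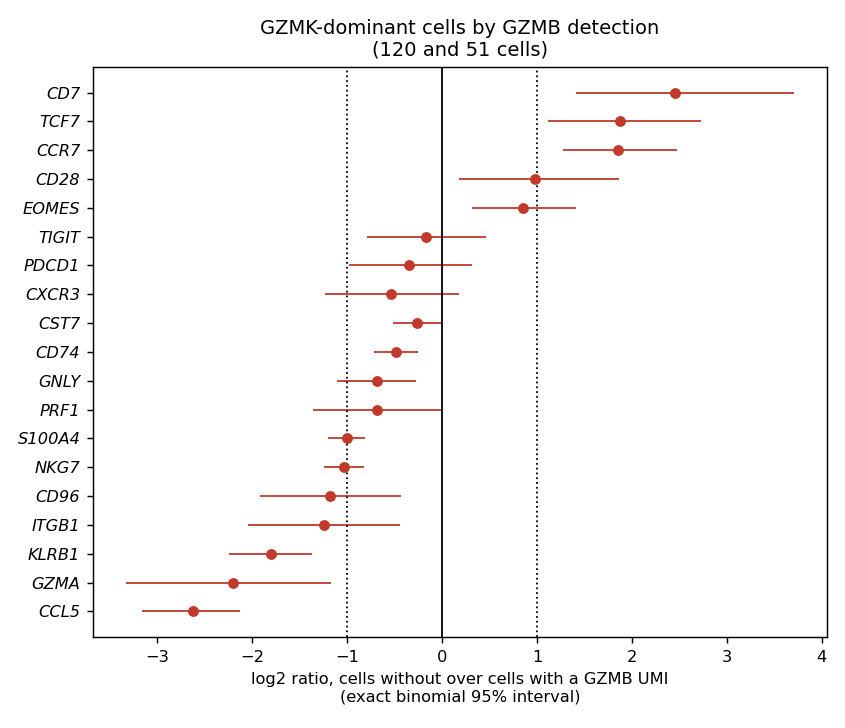
Log2 ratios (x axis) of named genes between GZMK-dominant cells without (120) and with (51) a *GZMB* UMI, with exact binomial 95% intervals, the line at 0 and dotted lines at the limit of a call. *CD7*, *TCF7* and *CCR7* lie to the right of 1, and *CCL5*, *GZMA* and *KLRB1* lie farthest to the left.

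A split by *EOMES* gave fewer calls. Thinned counts placed 72 cells with an *EOMES* UMI against 91 without, while the sums compared used all UMIs. Before thinning, the 91 cells held 36 *EOMES* UMIs (102 CPM, 71.1 to 141). The split therefore does not separate cells with from cells without *EOMES* RNA. Of 1443 genes, 8 were higher, *EOMES* itself among them, and 8 lower (0.554% each). *KLRB1* was lower in cells with *EOMES* (-1.21, -1.75 to -0.70), and *CCL5* had -0.91 (-1.44 to -0.41). Both genes were uneven among the cells, as given above. *PDCD1* was 208 against 107 CPM (0.96, 0.32 to 1.60), under the limit. The *GZMK* medians were 8 and 9 UMIs. *CCR7*, *NKG7*, *CST7*, *TIGIT*, *CXCR3* and *CD74* had intervals that included 0.

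A split by the CD8 tag at its median of 405 UMIs gave fewer still. Of 1479 genes, 8 were higher in the 85 cells with the lower tag (0.541%) and 2 were lower (0.135%). *HLA-DRA* was 1 of these, at 82.4 against 178 CPM (-1.11, -1.87 to -0.40). It was uneven, with no UMI in 132 GZMK-dominant cells and 51.9% of its UMIs in 10 cells. The interval does not cover such unevenness. *CD8A* RNA ran with its tag, at 82.4 against 153 CPM (-0.90, -1.67 to -0.16), and *GNLY* had 227 against 432 CPM (-0.93, -1.38 to -0.50). *EOMES*, *NKG7*, *CST7*, *CCR7*, *KLRB1*, *PDCD1* and *TIGIT* had intervals that included 0.

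GZMK-dominant cells outside the tag limits, 23 cells with a CD8 tag median of 1907 UMIs and a CD4 tag median of 142, met every other condition of the rule. They held 112116 UMIs (median 3872 per cell), so few genes could be compared. Depth was uneven, with a median of 7331 UMIs in the 11 cells left out for the CD8 tag alone. It was 3853 in the 8 left out for both tags and 1675 in the 4 left out for the CD4 tag alone. The sums therefore lean on the 11 deeper cells. Of 1742 genes, 63 were higher in the cells inside the limits (3.62%) and 40 lower (2.3%). Of 6 genes of the Tr1 list, 0 passed in either direction. *EOMES* did not pass, at 293 against 250 CPM (0.23, -0.35 to 0.86). *CD8A*, which the tag limits bear on, was lower inside the limits at 120 against 589 CPM (-2.30, -2.80 to -1.80). Of 9 granule genes, 3 were lower and 0 higher, namely *CTSW* at 146 against 535 CPM (-1.88, -2.36 to -1.38), *GZMA* (-1.37, -2.21 to -0.47) and *PRF1* (-1.27). *BHLHE40* was lower at -2.05 (-2.90 to -1.18). *CCR7* was higher at 1.48 (0.75 to 2.31), with 16 UMIs in the 23 cells. The 8 genes with the largest ratios on the higher side, led by *CDKN2AIP*, had 1 to 4 UMIs each in the 23 cells.

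A named α chain variable segment with at least 2 UMIs was seen in 79 of 171 cells (46.2%, 38.6 to 54.0%), spread over 21 of the 23 segments that carry a symbol. The most common, *TRAV26-2*, was in 13 cells (7.60%, 4.11 to 12.6%), against 3.14% of the other kept cells with a UMI of it. Among β chain segments *TRBV9* led with 12 cells at that minimum, or 7.02% (3.68 to 11.9%). At 1 UMI or more, *TRAV26-2* was in 13 and *TRBV9* in 15 of the 171 cells, and in 8 and 7 of 885 GZMB-dominant cells. Named segments of any kind were also rarer in GZMB-dominant cells. With at least 2 UMIs, a named α segment was seen in 19.9% of them and a named β segment in 4.41%, against 46.2% and 17.5% of GZMK-dominant cells. A named β segment at that minimum was seen in 30 of 171 cells, and 9 cells had a named α and a named β segment, each a different pair, which is too few to look for a shared receptor.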

How the data were processed

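RNA and CD4 and CD8α tags were measured in 1 preparation of cells. The deposited values are raw UMI counts per gene and per tag, with lists of genes and barcodes; the submitters' processing notes name Cell Ranger 3.1.0, STAR 2.5.1b and Seurat 3.1.3, and the study's methods name Macaca_fascicularis_5.0 as the genome reference. Of 29324 genes listed, 7899 carry only an Ensembl identifier and were not named. For each group, the counts of all its cells were added up and scaled to CPM with exact Poisson intervals, shares with Clopper-Pearson intervals, and ratios with exact binomial intervals (Python 3.11.15, numpy 2.4.6, scipy 1.17.1, pandas 2.3.3, scanpy 1.11.5, matplotlib 3.10.9). The scripts were tested on simulated data. The members and gene lists were chosen with earlier results of these data known. Named genes were those of the lists and, for each comparison, the 8 with the largest ratios in each direction among genes past the minimum of 50 UMIs and found in 10% or more of cells where they were higher, and a symbol on more than 1 row was given no value. The B cell reference was set after the data were seen. Scrublet called 0 doublets and so had not worked. Removing the 530 cells with the highest scores, 15 of them GZMK-dominant, was tried as an alternative, as were other minimums of UMIs, other forms of the rule and a mitochondrial limit of 10%. Results for some listed genes are not reported here.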

Additional observations from a re-analysis of the deposited data

How the results depend on the processing

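No paired analysis was possible because the 2 libraries hold the same cells of 1 animal and nothing was replicated. The number of genes past 2-fold moved most with the minimum of UMIs. Against all other kept cells, 1094 were higher with no minimum beyond 1 UMI. Against GZMB-dominant cells, 349 were higher and 850 lower at a minimum of 20 UMIs, and 1061 and 994 with none. Against GZMK-dominant cells outside the tag limits, 375 and 219 passed at 20 UMIs, 720 and 1420 with none, and 20 were lower in sums of counts thinned to 2200 UMIs per cell, an alternative chosen after seeing the data. Without thinning, 60.2% of cells had an *EOMES* UMI. When the cells in the middle of the CD8 tag range were left out, 4 genes were lower at the low tag. Against GZMB-dominant cells, 65 named genes past 2-fold were followed, and 0 reversed under the alternatives tried. Ratios of that size seldom change sign, a changed minimum of UMIs leaves a ratio as it is, and ratios inside 2-fold were not followed. Of 650 values, 56 lay outside the interval first given, 20 of them with *GZMB* at 0 in members and 12 in thinned sums. Against all other cells *IFI44* turned to -0.59 when members were chosen on thinned cells, and *CD14* and *CDK1* turned to 0.047 and 0.24 in thinned sums. Against the cells outside the tag limits, *HLA-DRA* turned to 0.85 for members without *GZMB*, and *BATF* and *ITGB7* turned to 0.31 and 0.22 in thinned sums. The cause was not tested. Other forms of the rule gave 120 to 193 members. The depth limits genes with few UMIs, and 1 animal gives no measure of variation between animals.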

Other observations

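Interferon-stimulated genes and early response genes were not described above. Of 13 interferon-stimulated genes compared with all other kept cells, *ISG15*, *IFI44*, *IFIT3* and *MX2* were higher and 0 were lower, with a median log2 ratio of 0.52. Of all genes, 5.45% were higher and 8.38% lower. *ISG15*, a ubiquitin-like modifier, rested on 27 UMIs (1.62) and *MX2*, an antiviral GTPase, on 36 UMIs (1.36), while *IFI44* had 4 UMIs. Against GZMB-dominant cells, 0 of 9 such genes were higher and 1, *IFIT2*, was lower (2.22% and 7.62% of all genes).

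Of 17 early response genes compared with all other kept cells, 0 were higher and 3 were lower, *EGR1*, *NR4A1* and *CD83*, with a median log2 ratio of -0.11 (8.38% of all genes were lower). Against GZMB-dominant cells 0 of 14 passed in either direction. Of 8 cell cycle genes compared with GZMB-dominant cells, 6 were lower and 0 higher (7.62% of all genes were lower), and the 6 included *MKI67*, a marker of proliferation, with 4 UMIs in GZMK-dominant cells. Against all other kept cells, 2 of 12 cell cycle genes were higher (*TOP2A* and *CCNB2*) and 4 lower, with a median of 0.05 (5.45% and 8.38% of all genes). *CDK1*, 1 of the 4, turned to 0.24 in thinned sums. Of 13 survival and death genes compared with all other kept cells, 1 was higher, 1 lower and 11 inside the limit (5.45% and 8.38% of all genes). The higher gene was the apoptosis receptor *FAS*, with 56 UMIs and a log2 ratio of 1.67, and the lower gene was *BCL2*.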
